A study of Mus musculus with 12 samples.

Results

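Granins are the acidic cargo proteins of large dense-core vesicles, the organelles in which neurons and endocrine cells store peptide transmitters and hormones. The genes described here were chosen by symbol: the granins Chga, Chgb, Scg2, Scg3, Scg5 and Vgf, the vesicle and endoplasmic reticulum protein gene Resp18, and the enzymes Pcsk1, Pcsk2 and Cpe, which cut and trim prohormones inside those vesicles. All 10 symbols matched 1 row each of a table of 51341 genes, and all 10 were among the 14203 genes that reached 1 FPKM (a measure of transcript level corrected for gene length and library depth) in at least 3 mice. The 10 genes were proposed with their values in responders and nonresponders already known, so that contrast is given as a description: only counts of calls stand beside it, with the share of all genes called, and no p of a single gene.

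The tissue was the trigeminal ganglion, the sensory ganglion of the face and the meninges, of CD1 mice, an outbred stock. The 6 responders to the neuropeptide PACAP (pituitary adenylate cyclase-activating polypeptide) were 3 males (replicates 1, 2 and 6) and 3 females (3, 4 and 5). The 6 nonresponders were 3 males (2, 4 and 5) and 3 females (1, 3 and 6). No genotype, age, dose or untreated mouse is given in the sources used here, and the score that made a mouse a responder is not given either.

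In a peptidergic neuron the granins aggregate with prohormones in the trans-Golgi network and help to form the vesicle, the prohormone convertases PC1/3 (Pcsk1) and PC2 (Pcsk2) cut the precursors at pairs of basic residues, and carboxypeptidase E (Cpe) removes the basic residues left at the new ends. Trigeminal neurons store CGRP and PACAP in such vesicles. Several of the same genes are highly active in the anterior pituitary, which lies between the trigeminal ganglia at the base of the skull. Growth hormone (Gh) and prolactin (Prl) transcripts, products of pituitary somatotrophs and lactotrophs, were therefore read in the same libraries.

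The FPKM of a library summed to between 286388 and 358590, with 12648 to 13994 genes at 1 FPKM or more. Neuronal genes marked the tissue: the summed level of 15 sensory neuron markers was 4765 to 6180 FPKM in responders 2 to 6 and 2981 FPKM in responder 1, against 3373 to 5161 FPKM in nonresponders. Responder 1 stood apart, with Gh alone taking 17.7% of its total FPKM, against 1.83% in responder 2 and at most 0.452% in each of the other mice. Each mouse also carries a compound number in the labels whose meaning is not given. The 7 leading numbers each occur in 1 response group and 1 sex only, in at most 3 mice, so that whatever they mark cannot be told apart from the response, and the mice of a number may not be independent.

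By level the 10 genes spanned a wide range in these ganglia. FPKM is per length, so genes can be ranked by it. The median over the 12 mice was 343 FPKM for Cpe, 242 for Scg5, 131 for Scg3, 107 for Chga, 68.4 for Chgb, 46.5 for Scg2, 29.3 for Pcsk2, 20.3 for Pcsk1, 19.1 for Vgf and 4.39 for Resp18. Most steps in that order held within nearly every mouse: Scg5 was above Scg3, Chgb above Scg2, Scg2 above Pcsk2, Pcsk2 above Pcsk1 and Vgf above Resp18 in all 12. Cpe was above Scg5 in 11 mice, Scg3 above Chga in 10 and Chga above Chgb in 9. Pcsk1 was above Vgf in only 7 of 12, so these neighbours were not separated beyond their spread. Scg2 and Pcsk2 were the only neighbours whose ranges over the mice did not overlap.

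Promoters are shown for 5 of these genes: Chgb, Scg2 and Pcsk1 with a full motif, Chga with part of it, and Resp18 without it. Chgb and Scg2 were picked as the granins that departed most from the other mice in responder 1. The sequences come from RefSeq on GRCm38.p6, cover 250 bases before to 50 bases after the RefSeq start, and run 5′ to 3′ on the strand of the gene. Of the 10 genes, 8 matched by symbol, and no window was at hand for Vgf and Cpe. The motif searched on both strands was the cyclic AMP response element TGACGTCA, the site bound by CREB-family factors, and its half-site TGACG or CGTCA, which the full motif contains. Capitals mark the full motif in Chgb, Scg2 and Pcsk1, and the half-site in Chga; the Pcsk1 window holds 1 further half-site, left in lower case. The Chgb window is chr2:132781392-132781691 on the plus strand, Scg2 chr1:79439977-79440276 on the minus strand, Pcsk1 chr13:75089607-75089906 on the plus strand, Chga chr12:102554691-102554990 on the plus strand and Resp18 chr1:75278366-75278665 on the minus strand.
Chgb: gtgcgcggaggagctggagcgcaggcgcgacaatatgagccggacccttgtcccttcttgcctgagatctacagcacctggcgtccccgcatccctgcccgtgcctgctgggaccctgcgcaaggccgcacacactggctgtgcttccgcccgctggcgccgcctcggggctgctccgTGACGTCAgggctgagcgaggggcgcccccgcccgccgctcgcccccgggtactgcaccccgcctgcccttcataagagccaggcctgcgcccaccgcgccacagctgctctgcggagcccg
Scg2: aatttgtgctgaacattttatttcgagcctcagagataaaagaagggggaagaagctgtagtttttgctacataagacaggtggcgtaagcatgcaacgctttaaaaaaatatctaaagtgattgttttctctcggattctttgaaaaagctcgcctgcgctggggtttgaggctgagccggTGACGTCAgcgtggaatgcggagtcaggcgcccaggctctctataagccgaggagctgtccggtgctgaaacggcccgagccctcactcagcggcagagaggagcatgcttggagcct
Pcsk1: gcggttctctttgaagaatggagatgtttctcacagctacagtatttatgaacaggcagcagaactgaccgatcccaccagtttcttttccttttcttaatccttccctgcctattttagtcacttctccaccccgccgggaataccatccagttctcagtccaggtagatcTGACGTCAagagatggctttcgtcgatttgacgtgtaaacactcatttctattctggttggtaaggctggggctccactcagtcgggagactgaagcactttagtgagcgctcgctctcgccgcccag
Chga: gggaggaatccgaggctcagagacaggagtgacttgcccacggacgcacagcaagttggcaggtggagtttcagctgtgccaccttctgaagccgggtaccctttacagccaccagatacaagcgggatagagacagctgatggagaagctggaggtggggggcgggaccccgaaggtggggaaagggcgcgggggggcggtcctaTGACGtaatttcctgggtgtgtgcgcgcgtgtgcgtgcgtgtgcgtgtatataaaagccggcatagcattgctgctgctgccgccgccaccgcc
Resp18: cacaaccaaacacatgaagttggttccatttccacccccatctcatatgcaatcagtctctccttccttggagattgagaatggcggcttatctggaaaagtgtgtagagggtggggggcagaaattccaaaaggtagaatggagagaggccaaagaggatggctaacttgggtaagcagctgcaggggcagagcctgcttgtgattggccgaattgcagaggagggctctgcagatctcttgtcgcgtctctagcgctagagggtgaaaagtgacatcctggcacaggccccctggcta
The full motif began 72 bases before the start in Chgb, 68 in Scg2 and 78 in Pcsk1, and the half-site 44 bases before it in Chga. Of the 8 promoters, 3 held the full motif and 7 the half-site, against 1.79% and 20.8% of 32851 promoters of the same length. The windows of Scg5, Scg3 and Pcsk2, not shown, held the half-site without the full motif, as did Chga. In responder 1, Pcsk1 with the full motif was at 1.73 times the nonresponder median. Scg5, Scg3 and Pcsk2 were at 3.27, 1.42 and 1.22 times theirs. A relation between motif and level was not tested. Neither form was in the Resp18 window, which says nothing of the factor. A match is a description of letters and not of binding.

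Chgb and Scg2 showed the widest spread among the granins, and responder 1 made most of it. Chgb (ENSMUSG00000027350, chr2:132781278-132795079, plus strand, GRCm38) encodes chromogranin B, a vesicle matrix protein. It had 1042, 180.4, 128, 68.3, 76.9 and 67.1 FPKM in responders 1 to 6, against 57.4, 70.5, 53.7, 51.4, 65.8 and 68.5 FPKM in nonresponders 1 to 6. Responders 1, 2, 3 and 5 lay above every nonresponder and the groups overlapped in the other 2. The mean was 260.4 ± 385 FPKM in responders and 61.2 ± 8.10 FPKM in nonresponders (SD, n = 6 each), and 104 ± 49.4 FPKM in the responders without responder 1.

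Scg2 (ENSMUSG00000050711, chr1:79434669-79440120, minus strand) encodes secretogranin II, the precursor of secretoneurin. It had 889, 169, 59.8, 46.2, 46.8 and 57.0 FPKM in responders 1 to 6, against 43.9, 45.7, 35.6, 37.7, 49.6 and 39.2 FPKM in nonresponders 1 to 6. Responders 1, 2, 3 and 6 were above all nonresponders, while responders 4 and 5 were within the nonresponder range. The responder mean of 211 ± 335 FPKM dropped to 75.7 ± 52.4 FPKM without responder 1, against 41.9 ± 5.34 FPKM in nonresponders (SD, n = 6, 5 and 6).

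Chga (ENSMUSG00000021194, chr12:102554969-102565028, plus strand) encodes chromogranin A, which drives granule formation in endocrine cells. It had 371, 175, 125, 107, 116 and 103 FPKM in responders 1 to 6, against 101, 111, 82.8, 74.7, 99.3 and 107 FPKM in nonresponders 1 to 6. Responders 1, 2, 3 and 5 were above all nonresponders, as for Chgb. The mean was 166 ± 104 FPKM in responders and 96.0 ± 14.2 FPKM in nonresponders (SD, n = 6 each), and 125 ± 29.0 FPKM in responders 2 to 6.

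Scg5 (ENSMUSG00000023236, chr2:113776362-113829121, minus strand) encodes 7B2, the chaperone that PC2 needs to mature. It had 769, 302, 255, 244, 208 and 234 FPKM in responders 1 to 6, against 265, 255, 206, 173, 231 and 239.5 FPKM in nonresponders 1 to 6. Only responders 1 and 2 exceeded the nonresponders. The responder mean was 335 ± 215 FPKM with responder 1 and 249 ± 34.6 FPKM without it, against 228 ± 33.7 FPKM in nonresponders.

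Scg3 (ENSMUSG00000032181, chr9:75643189-75684056, minus strand), a granin that binds chromogranin A and the vesicle membrane, was far steadier. Its level was 174, 142, 128, 139, 140.3 and 133 FPKM in responders 1 to 6, against 146, 127, 109, 96.1, 119 and 128 FPKM in nonresponders 1 to 6. Responder 1 was again highest, but the other 5 responders lay within the nonresponder range. The coefficient of variation over the 12 mice was 14.9% for Scg3, against 174% for Chgb and 192% for Scg2.

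Vgf (ENSMUSG00000037428, chr5:137026392-137033351, plus strand), a nerve growth factor-inducible granin and the precursor of several neuropeptides, departed from the other granins. It had 11.7, 16.1, 21.7, 21.7, 32.8 and 19.8 FPKM in responders 1 to 6, against 18.5, 25.2, 15.03, 15.5, 23.1 and 17.0 FPKM in nonresponders 1 to 6. Responder 1, the highest mouse for 8 of the 10 genes, was the lowest of the 12 for Vgf. The groups overlapped almost completely, with means of 20.6 ± 7.09 FPKM in responders and 19.1 ± 4.201 FPKM in nonresponders (SD, n = 6 each).

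The processing enzymes had narrower ranges over the mice than Chgb, Scg2, Chga and Scg5, with coefficients of variation of 14.7% for Pcsk2, 14.9% for Cpe and 21.1% for Pcsk1. Cpe (ENSMUSG00000037852, chr8:64592542-64693054, minus strand) had 474, 366, 376, 342, 323 and 322 FPKM in responders 1 to 6, against 331, 348, 338, 245, 344 and 361 FPKM in nonresponders 1 to 6. Pcsk1 (ENSMUSG00000021587, chr13:75089826-75134861, plus strand) had 32.3, 20.4, 18.5, 22.8, 20.3 and 20.5 FPKM in responders 1 to 6, against 20.95, 20.7, 17.5, 14.2, 18.3 and 19.1 FPKM in nonresponders 1 to 6. Pcsk2 (ENSMUSG00000027419, chr2:143546156-143816285, plus strand) had 33.6, 29.0, 30.5, 32.5, 29.5 and 29.1 FPKM in responders 1 to 6, against 28.2, 31.0, 20.96, 19.8, 29.8 and 26.8 FPKM in nonresponders 1 to 6. Responder 1 was highest and nonresponder 4 lowest for all 3 enzymes, and the groups overlapped for each. Pcsk1 averaged 20.5 ± 1.504 FPKM in responders 2 to 6 and 18.5 ± 2.48 FPKM in nonresponders, a difference within the nonresponder SD. The Pcsk2 model shares bases with the antisense gene Pcsk2os1, which reached 7.59 FPKM, and since the use of strand is not given, its reads may be split between them. Transcripts of Pcsk2 also match those of 8 further genes at about 90% identity over 217 to 402 bases.

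**Figure D1:**
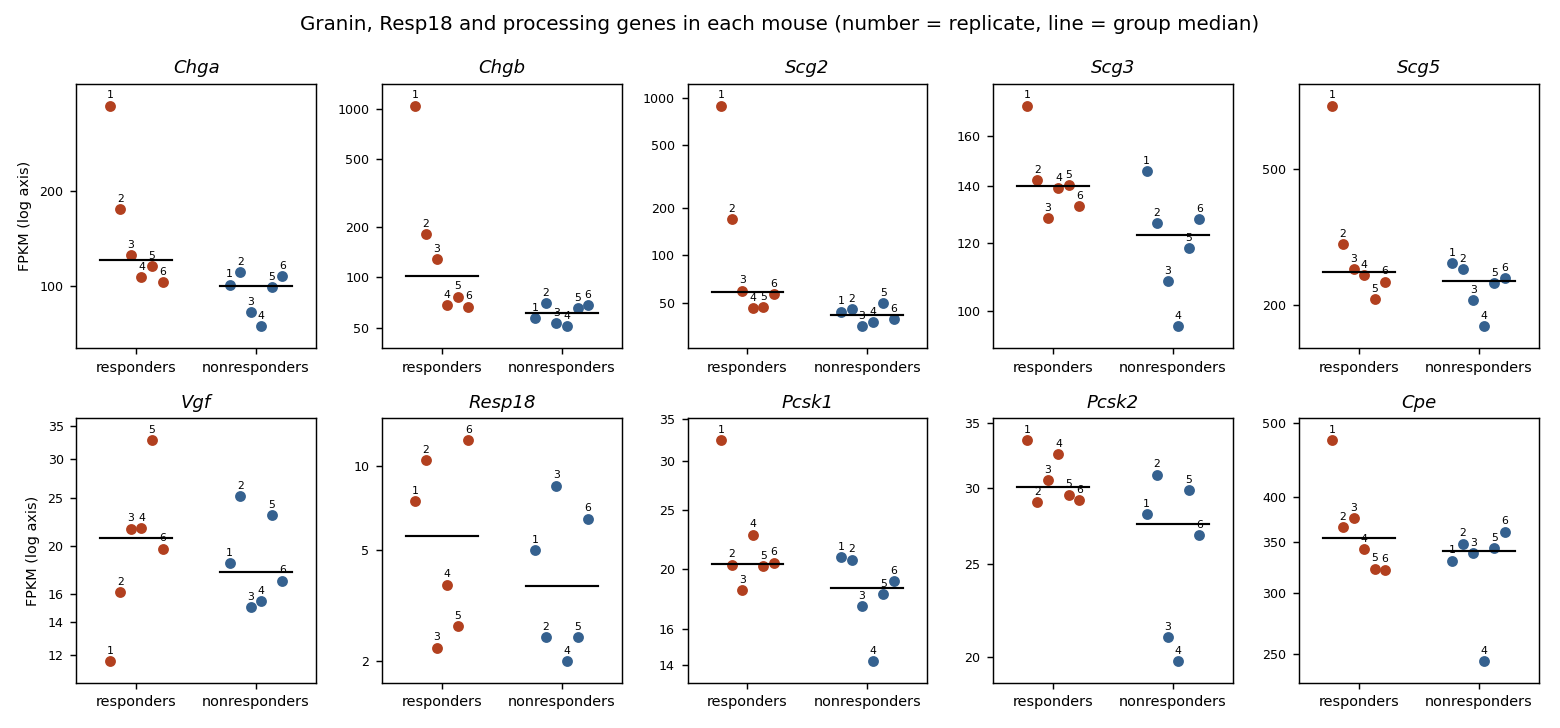
Level of each gene in each mouse, in FPKM on a log axis that differs between panels, with responders left of nonresponders, numbers giving the replicate and lines the group median. Responder 1 is the highest mouse in 8 of the 10 panels, at 1042 FPKM for Chgb and 889 FPKM for Scg2, and the lowest for Vgf at 11.7 FPKM.

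Resp18 (ENSMUSG00000033061, chr1:75272199-75278415, minus strand) is the regulated endocrine-specific protein 18, a luminal protein of neuroendocrine secretory cells related to the vesicle protein encoded by its neighbour Ptprn, 7697 bases away. It followed none of the granins. It had 7.51, 10.6, 2.24, 3.77, 2.68 and 12.4 FPKM in responders 1 to 6, against 5.02, 2.44, 8.54, 2.01, 2.44 and 6.50 FPKM in nonresponders 1 to 6. The groups overlapped, with means of 6.53 ± 4.30 FPKM in responders and 4.49 ± 2.66 FPKM in nonresponders (SD, n = 6 each).

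Within each sex the Resp18 groups were separate, in opposite directions. Female responders averaged 2.90 ± 0.786 FPKM and female nonresponders 6.68 ± 1.77 FPKM (SD, n = 3 each), and all 3 female responders were below all 3 female nonresponders. Male responders averaged 10.2 ± 2.47 FPKM and male nonresponders 2.30 ± 0.250 FPKM, and all 3 male responders were above all 3 male nonresponders. Across the 14203 genes, 114 (0.803%) showed such separation in both sexes with opposite directions, and Resp18 was the only one of the 10 to do so. Of the 20 tested vesicle and processing partners described below, 1 did so too. Resp18 had been singled out with these values known, so its values are a description and not a test. The interaction, the response difference in females minus that in males, was -2.71 on the log2(FPKM + 1) scale (SE 0.31). In the limma fit across all genes with Benjamini-Hochberg adjustment the interaction was called for 0 genes (0%), and 711 genes (5.01%) had an unadjusted p under 0.05. With 1 mouse left out the Resp18 interaction ranged from -2.89 (without responder 1) to -2.54 (without nonresponder 3). The leading label numbers also hold 1 sex each, and all 3 male nonresponders share a number, so that in Resp18 the pattern by sex and response cannot be told apart from whatever these numbers mark. Its neighbour Ptprn, at a lower level, had 2.27, 1.90, 2.00, 1.86, 1.23 and 1.83 FPKM in responders 1 to 6, against 2.20, 1.61, 3.24, 0.785, 1.86 and 2.34 FPKM in nonresponders 1 to 6. All female responders were below all female nonresponders for Ptprn too, while male responder 6 and male nonresponder 5 overlapped. Ptprn was named after its values were seen, and the share of all genes with such separation in 1 sex was not counted, so nothing is read from it. The interaction of Ptprn was -0.75 (SE 0.28).

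**Figure D2:**
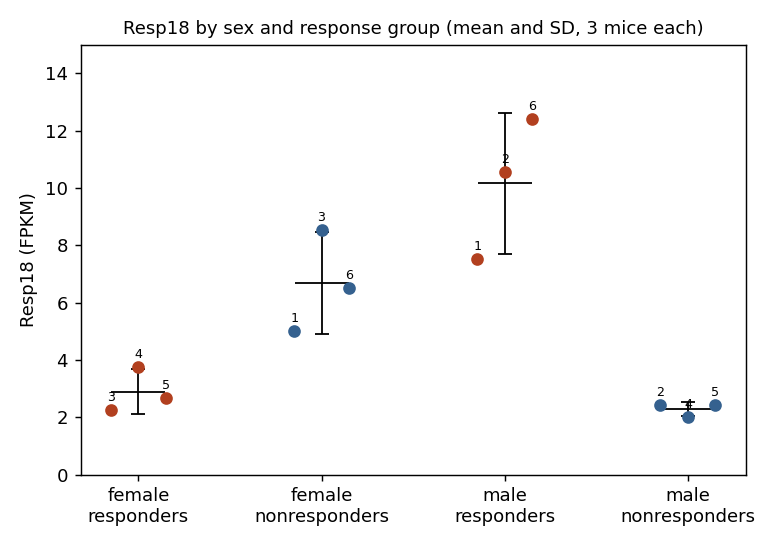
Resp18 in FPKM by sex and response group, 1 point per mouse with its replicate number, horizontal line at the mean and bar for the SD (3 mice each). Female responders (mean 2.90 FPKM) lie below female nonresponders (6.68 FPKM), and male responders (10.2 FPKM) lie above male nonresponders (2.30 FPKM).

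Set side by side on the log2(FPKM + 1) scale with sex as a covariate, the difference between responders and nonresponders was 1.27 (SE 0.56) for Scg2, 1.22 (0.55) for Chgb, 0.63 (0.27) for Chga, 0.40 (0.27) for Scg5, 0.38 (0.43) for Resp18, 0.26 (0.14) for Pcsk1, 0.25 (0.11) for Scg3, 0.24 (0.12) for Pcsk2, 0.16 (0.13) for Cpe and 0.07 (0.21) for Vgf. All 10 estimates were above 0, as were 50.7% of all genes tested. Their median was 0.32, against 0.0034 over all genes. None of the 10 (0 of 10) was called by limma with Benjamini-Hochberg adjustment, where 3 of 14203 genes (0.0211%) were. An unadjusted p under 0.05 was reached in the positive direction by 3 of the 10 and by 3.23% of all genes. Nothing is read from these counts, since this contrast chose the genes. For none of the 10 did every responder exceed every nonresponder, which 0.253% of all genes showed.

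For Scg2, Chgb, Chga, Scg5, Pcsk1 and Cpe the size of the difference depended on responder 1. Without it, the difference was 0.70 (SE 0.26) for Scg2, 0.67 (0.25) for Chgb, 0.37 (0.16) for Chga, 0.14 (0.10) for Pcsk1, 0.13 (0.13) for Scg5 and 0.08 (0.10) for Cpe. Without responders 1 and 2 it was 0.36 (0.12) for Scg2, 0.40 (0.20) for Chgb, 0.22 (0.13) for Chga, 0.13 (0.12) for Pcsk1, 0.03 (0.13) for Scg5 and 0.03 (0.12) for Cpe. Resp18 was at 0.31 (0.47) without responder 1 and 0.03 (0.50) without both. Vgf went the other way, at 0.21 (0.20) without responder 1 and 0.34 (0.20) without both. With log2(Gh + 1) of the same mouse as a further covariate, the difference was 0.09 (0.48) for Scg2, 0.06 (0.45) for Chgb, 0.11 (0.26) for Chga, 0.14 (0.18) for Pcsk1, -0.06 (0.29) for Scg5, -0.03 (0.14) for Cpe and 0.40 (0.24) for Vgf. In the same fit it was 0.11 (0.56) for Resp18, 0.17 (0.15) for Scg3 and 0.25 (0.16) for Pcsk2. Averaging the mice that share a leading label number gave 0.91 for Scg2, 0.90 for Chgb, 0.50 for Chga and 0.08 for Resp18. It gave 0.28 for Vgf, 0.27 for Pcsk2, 0.25 for Scg5, 0.24 for Scg3, 0.22 for Pcsk1 and 0.10 for Cpe.

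**Figure D3:**
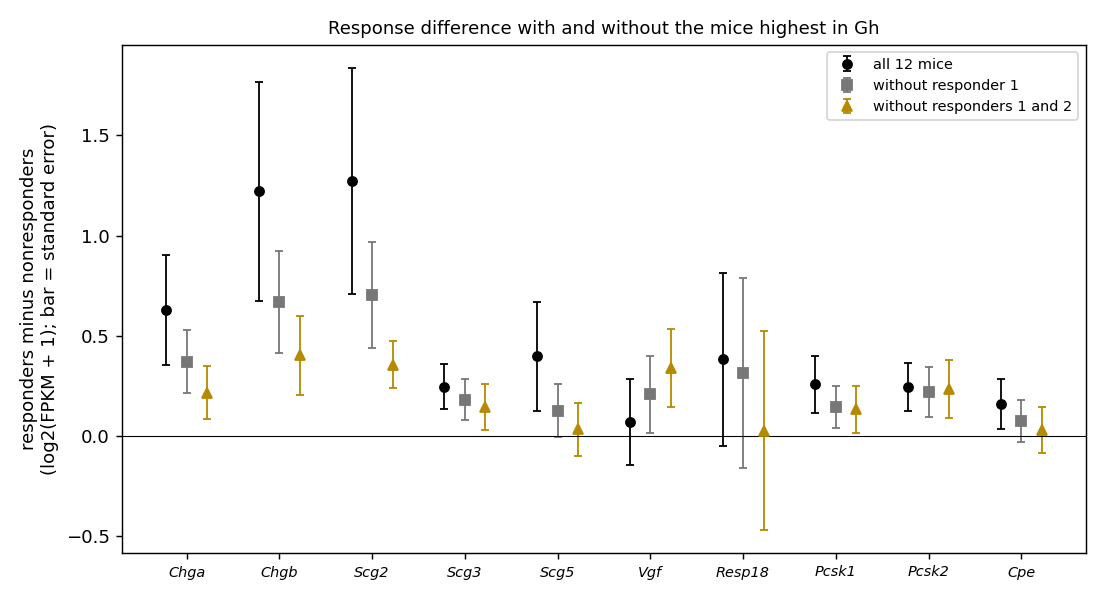
Difference between responders and nonresponders per gene on the log2(FPKM + 1) scale, with bars for the standard error, for all 12 mice (circles), without responder 1 (squares) and without responders 1 and 2 (triangles). The difference of Scg2 is 1.27 with all mice, 0.70 without responder 1 and 0.36 without both, while that of Pcsk2 is 0.24, 0.22 and 0.24.

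Gh itself was uneven over the mice. It had 63429, 5578, 1363, 78.3, 386 and 358 FPKM in responders 1 to 6, against 29.1, 18.1, 172, 92.6, 701 and 154 FPKM in nonresponders 1 to 6. Prl had 9397, 647, 2219, 273, 724 and 56.2 FPKM in responders 1 to 6, against 88.9, 4.67, 869.5, 15.8, 122 and 334 FPKM in nonresponders 1 to 6. Responder 1 was the highest mouse for both hormones, responder 2 the next for Gh and responder 3 the next for Prl, and the other responders overlapped with the nonresponders.

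The granins that were high in responder 1 and, less so, in responder 2 were high in the mice with most Gh. Responders 1 and 2 share a leading label number that no other mouse has, and may not be independent. Relative to the nonresponder median, responder 1 had 21.4 times as much Scg2, 16.9 times as much Chgb, 3.70 times as much Chga and 3.27 times as much Scg5. Responder 2 had 4.06 times as much Scg2, 2.93 times as much Chgb, 1.74 times as much Chga and 1.28 times as much Scg5. The ratio to the nonresponder median in responder 1 was 2.02 for Resp18, 1.73 for Pcsk1, 1.42 for Scg3, 1.39 for Cpe, 1.22 for Pcsk2 and 0.66 for Vgf. For Resp18 the ratio was higher in responder 2, at 2.83.

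Expressed as FPKM above the nonresponder median, responder 1 had 980 for Chgb, 847 for Scg2, 534 for Scg5 and 271 for Chga, and responder 2 had 119 for Chgb, 127 for Scg2, 66.5 for Scg5 and 74.4 for Chga. The excess in responder 1 was thus 8.25 times that in responder 2 for Chgb, 8.03 for Scg5, 6.66 for Scg2 and 3.64 for Chga. It was 8.17 for Pcsk1, 5.41 for Cpe, 4.12 for Pcsk2, 2.59 for Scg3 and 0.553 for Resp18; of these, the excess in responder 2 exceeded the nonresponder SD for Resp18 and Scg3 only. For the pituitary hormones the same quotient was 23.5 for Pomc, 17.1 for Prl, 11.6 for Gh, 6.54 for Cga, 5.29 for Tshb, 5.22 for Fshb and 5.00 for Lhb. These are quotients of single mice without replicate error.

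**Figure D4:**
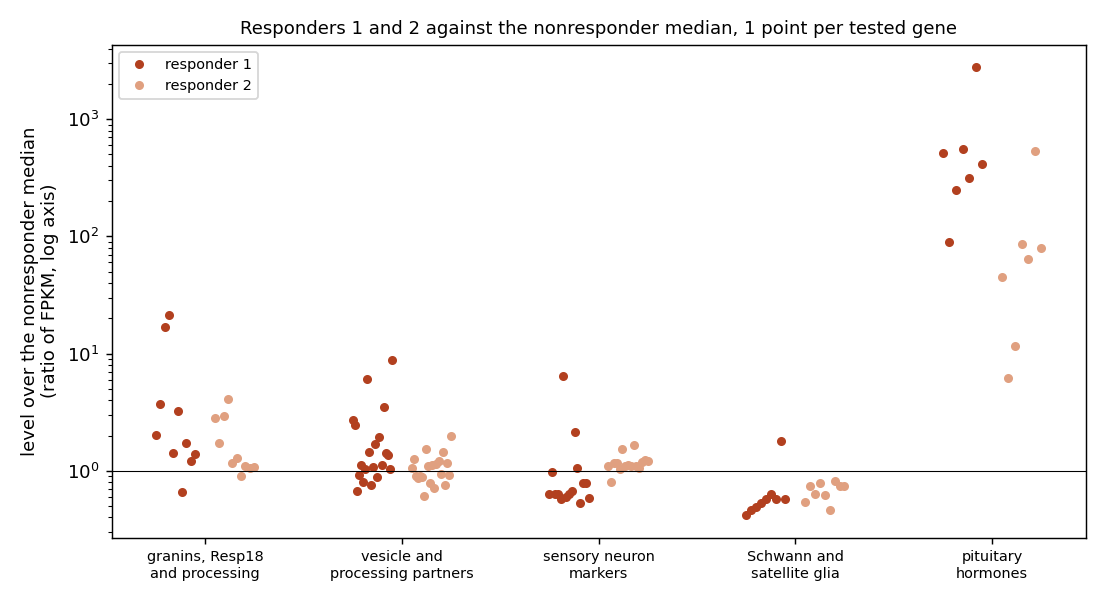
Ratio of FPKM in responder 1 (dark) and responder 2 (light) to the nonresponder median, 1 point per tested gene, on a log axis, for 5 gene lists. The pituitary hormones lie highest, and Scg2 and Chgb at 21.4 and 16.9 in responder 1 are the highest of the 10 genes, while most sensory neuron and glial markers lie below 1 in responder 1.

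Other cell type markers also differed between mice, not all of them in the same mice. The 7 pituitary hormone genes summed to 359.1 to 77880 FPKM in responders, against 27.2 to 1053 FPKM in nonresponders, and responder 1 was the highest mouse for all 7. The 15 pituitary cell genes, among them the transcription factor gene Pou1f1, summed to 1.09 to 447 FPKM in responders, against 0.36 to 4.27 FPKM in nonresponders. Responder 1 was highest for 13 of them, and Lhx4 was listed at 0 in all mice. The sensory neuron markers were lowest in responder 1 for 10 of 15. The 9 Schwann and satellite glia markers summed to 2469 to 4630 FPKM in responders, against 4494 to 6515 FPKM in nonresponders. The 6 fibroblast and meningeal markers summed to 261 to 513 FPKM in responders, against 552 to 1608 FPKM in nonresponders, without overlap. Among single genes, all responders were below all nonresponders for 42 of those tested (0.296%), and no such share was computed for sums. The marker lists were chosen with earlier results known, so the separation is a description. Responder 1 was the lowest responder for both the glia and the fibroblast sum. Responder 2, at 3238 FPKM for glia and 465 FPKM for fibroblast markers, lay within the range of the other responders. The 7 chromaffin and sympathetic markers, of cells that also hold chromogranins, summed to 3.58 to 11.2 FPKM in responders, against 4.23 to 9.90 FPKM in nonresponders, and responder 1 was highest for none. The part of these markers in the levels of the 10 genes was not tested. In whole ganglia, fewer cells of a type and less RNA per cell cannot be told apart.

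Across the 12 mice, the slope of each gene on log2(Gh + 1), with response group and sex as covariates, gives its log2 change per doubling of Gh. It was 0.32 (SE 0.08) for Scg2 and 0.31 (0.08) for Chgb, each with an adjusted p of 0.187 (limma, Benjamini-Hochberg over 14202 genes). It was 0.14 (0.04) for Chga with an adjusted p of 0.205, 0.12 (0.05) for Scg5 with 0.256, 0.05 (0.02) for Cpe with 0.292 and -0.09 (0.04) for Vgf with 0.293. None of the 10 was called, while 4 genes (0.0282%) were. An unadjusted p under 0.05 was reached with a positive slope by 5 of the 10 (Chga, Chgb, Scg2, Scg5 and Cpe), against 11.6% of all genes, and with a negative slope by Vgf, against 5.37%. Resp18, Pcsk1, Scg3 and Pcsk2 had slopes of 0.07, 0.03, 0.02 and -0.00, with adjusted p between 0.628 and 0.980. Without responder 1 the Gh slope was 0.13 for both Chgb and Scg2, 0.05 for Chga, 0.01 for Scg5, 0.03 for Cpe and -0.05 for Vgf. Without responders 1 and 2 it was 0.07 for Chgb, 0.03 for Scg2, -0.00 for Chga, -0.02 for Scg5, 0.02 for Cpe and -0.01 for Vgf.

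The slopes on log2(Prl + 1) ran alike: 0.35 for Scg2 and 0.34 for Chgb (adjusted p 0.108 each, limma), 0.15 for Chga (0.147), 0.14 for Scg5 (0.182) and -0.10 for Vgf (0.225). None of the 10 passed, while 10 genes (0.0704%) did. An unadjusted p under 0.05 was reached with a positive slope by 5 of the 10, against 12.9% of all genes, and with a negative slope by Vgf, against 6.08%. Without responder 1, the Prl slope was 0.15 for Scg2 and 0.14 for Chgb.

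Plain correlations were computed beside the slopes. Unlike the slopes, they held no term for response group. The genes were chosen with their values in the groups known, and responder 1 shaped those values, the slopes and the correlations alike. The p of the slopes and of the correlations are therefore a description and not a test. With Gh, on the log2 scale over 12 mice, Pearson's r was 0.877 for Chgb (permutation p = 0.00047, adjusted over all genes 0.173) and 0.871 for Scg2 (permutation p = 0.00058, adjusted 0.173). It was 0.833 for Chga (permutation p = 0.00229, adjusted 0.200) and 0.736 for Scg5 (permutation p = 0.0168, adjusted 0.236). Spearman's rho with Gh was 0.762 for Scg2 (permutation p = 0.00574, adjusted 0.742), 0.587 for Chgb (permutation p = 0.0489, adjusted 0.742), 0.538 for Chga (permutation p = 0.0743, adjusted 0.742) and 0.203 for Scg5 (permutation p = 0.528, adjusted 0.898). With responders 1 and 2 left out, the mice farthest from the median of Gh, r was 0.565 for Chgb, 0.514 for Scg2, 0.258 for Chga and -0.131 for Scg5. These relations rested largely on those mice, which share a leading label number and may not be independent. For Pearson's r, Spearman's rho and the main slopes alike, 20 relations of 10 genes with the hormones were computed. Correlations within the response groups came in addition. None of the relations over 12 mice passed the adjustment over all genes, where 12 genes (0.0845%) had a positive Pearson correlation with Gh that did.

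The correlation was then read within each response group. The exact p are unadjusted and no test, since the genes were chosen with these values known. Responder 1 was the highest responder for Gh, Chgb, Chga and Scg2, and r within the responders was not computed without it. Over the 6 responders r was 0.950 for Chgb and 0.943 for Chga (exact permutation p = 0.00417 each) and 0.941 for Scg2 (exact permutation p = 0.00278). Over the 6 nonresponders, whose Gh ranged only from 18.1 to 701 FPKM, r was -0.032 for Chgb (exact permutation p = 0.953), -0.242 for Chga (0.651) and 0.018 for Scg2 (0.971). The difference between the groups was not tested. Resp18 had r = 0.354 with Gh over all mice (permutation p = 0.265, adjusted 0.564), 0.345 within the responders (exact permutation p = 0.507) and 0.075 within the nonresponders (exact permutation p = 0.882). Its r with Prl was 0.312 over all mice (permutation p = 0.324, adjusted 0.759), -0.320 within the responders (exact permutation p = 0.532) and 0.842 within the nonresponders (exact permutation p = 0.0403, unadjusted). With Prl over all mice, r was 0.677 for Chgb (permutation p = 0.0108), 0.648 for Chga (permutation p = 0.0211), 0.6002 for Scg2 (permutation p = 0.0430) and 0.578 for Scg5 (permutation p = 0.0529), with adjusted p between 0.439 and 0.513. The Spearman coefficient with Prl was 0.545, 0.538, 0.399 and 0.210 for these 4 genes in that order (permutation p = 0.0698, 0.0742, 0.200 and 0.513, adjusted 0.845 to 0.945). Without responder 1 and nonresponder 2, r with Prl was 0.592 for Chgb, 0.562 for Chga, 0.284 for Scg2 and 0.417 for Scg5. The highest r with Prl among the 10 was that of Cpe, with r = 0.697 (permutation p = 0.0139, adjusted 0.452) and 0.778 without responder 1 and nonresponder 2.

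**Figure D5:**
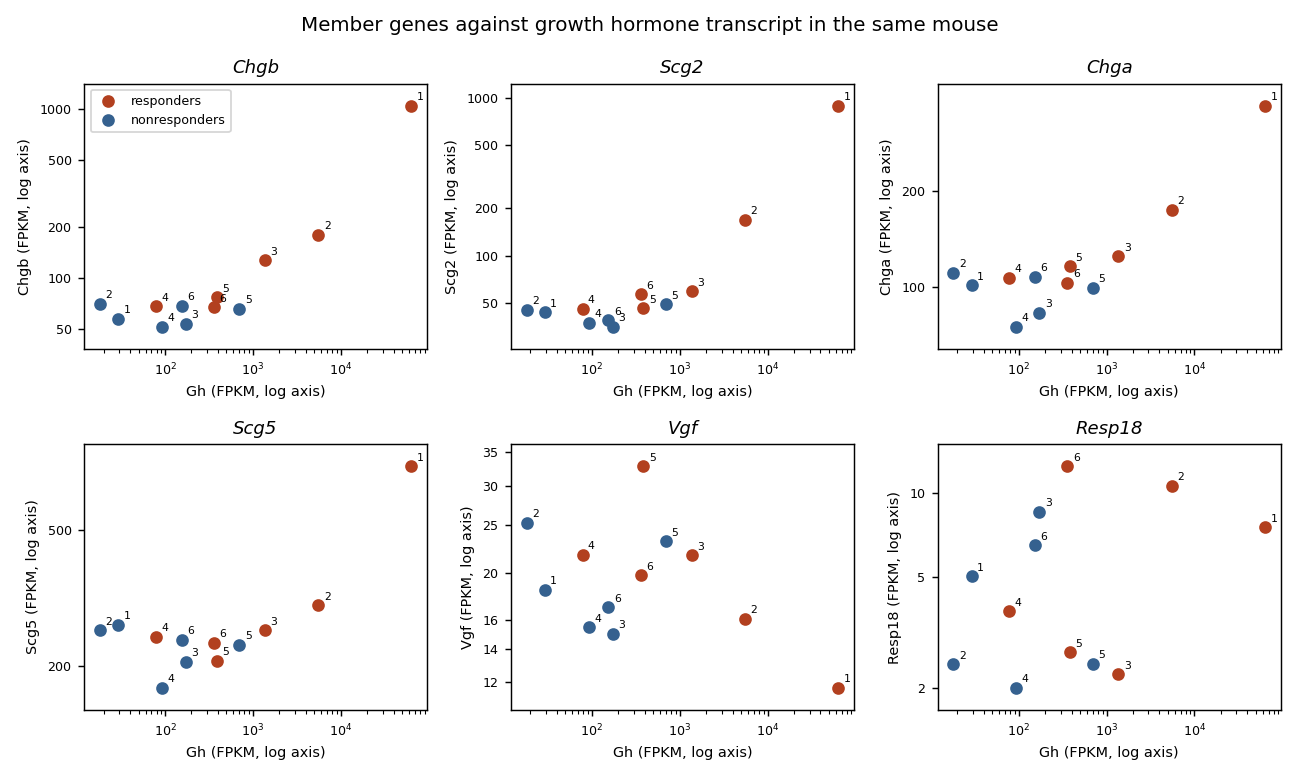
Level of 6 of the genes against Gh in the same mouse, both in FPKM on log axes, with responders in red, nonresponders in blue and numbers for the replicate. Chgb and Scg2 climb with Gh from responder 3 to responder 1, whose Gh is 63429 FPKM, and are flat over the nonresponders, whereas Vgf is lowest in responder 1 and Resp18 shows no order.

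Sex was not the contrast by which the 10 genes were chosen. The sex contrast is still not free of that choice, since responder 1 was a male and the values of Resp18 by sex were known. Females averaged 45.2 ± 8.33 FPKM of Scg2 and males 208 ± 337 FPKM, and females averaged 75.4 ± 27.0 FPKM of Chgb and males 246 ± 393 FPKM (SD, n = 6 each). The difference of females minus males on the log2 scale was -1.08 (SE 0.56) for Scg2, -0.73 (0.55) for Chgb, -0.33 (0.27) for Chga and -0.29 (0.27) for Scg5, each with an adjusted p of 0.864 (limma). Without responder 1, the highest male for all 4, these differences were -0.51 for Scg2, -0.18 for Chgb, -0.07 for Chga and -0.01 for Scg5. With all mice the difference was 0.18 for Vgf (adjusted p 0.872) and -0.16 for Resp18 (0.945), and lay between -0.05 and 0.02 for the other 4. None of the 10 was called, against 8 genes in all (0.0563%), and none had an unadjusted p under 0.05, against 4.53% of all genes. Gh averaged 364 ± 505 FPKM in females and 11696 ± 25433 FPKM in males; its part in these differences was not tested.

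Mouse-to-mouse likeness was measured as Pearson's r of log2 values after removing the means of response group and sex, over 12 mice and 14202 other genes, as a description that responder 1 shapes. Chgb, Scg2, Chga and Scg5 varied together: among all genes, Chgb was the most like Chga (r = 0.969), and Scg2 was the 12th most like Chgb (0.978). The 3 genes most like Chgb were Bex1, Igsf1 and Zkscan16 (0.989, 0.988 and 0.986), and those most like Scg2 were Cldn9, Gnb3 and Qpct (0.986, 0.985 and 0.983), Qpct being the glutaminyl cyclase of peptide hormones. For Chga they were Chgb, Brwd1 and Mocs3, and for Scg5 Vps51, Ankrd37 and Brwd1. Scg3 was most like Syt4, Magee2 and Pcsk1 (0.937, 0.910 and 0.908), Pcsk1 most like Ly6h, Atg9b and Nudt11, Pcsk2 most like Cops6, Gpr139 and Ccdc92b, and Cpe most like Nudt10, Nog and Saraf. Vgf was most like Mdh1, Larp1 and Slit1 (0.994, 0.953 and 0.949) and had a negative r with 8 of the 9 other genes described here. Resp18 was most like Tmem64, Kif2a and Zfp712 (0.962, 0.925 and 0.922), with a median r of 0.257 to the other 9 and none of them among its 200 closest. Without responder 1 the median r to the other 9 was 0.274 for Chgb and 0.446 for Scg2, against 0.724 and 0.763 with it, and the median for Vgf was 0.02, against -0.505 with it. Between Chgb, Scg2, Chga and Scg5 themselves, r without responder 1 ranged from 0.664 (Chgb and Scg5) to 0.876 (Chgb and Chga). With all mice the same pairs had r from 0.943 to 0.978.

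The partners of these genes in the vesicle were read as a list of 21, of which 20 were tested. In responders against nonresponders 11 of 20 estimates were above 0, with a median of 0.05, and 0 were called. The members with the highest mean were Pcsk1n, Ctsl, Pam and Ptprn2. Pcsk1n, the inhibitor of PC1/3 known as proSAAS, averaged 214 ± 74.8 FPKM in responders and 141 ± 26.9 FPKM in nonresponders (SD, n = 6 each). Ctsl, the protease cathepsin L, averaged 158 ± 21.8 FPKM in responders and 148 ± 29.7 FPKM in nonresponders, and Pam, the peptide-amidating enzyme, 62.6 ± 37.3 FPKM in responders and 51.1 ± 4.17 FPKM in nonresponders. Pam was at 138 FPKM in responder 1 and at 44.0 to 53.5 FPKM in the other responders, within or below the nonresponder range.

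Ptprn2, the vesicle membrane protein phogrin, was the only partner with no overlap between the groups. It had 65.4, 27.0, 27.8, 24.8, 24.0 and 20.97 FPKM in responders 1 to 6, against 16.9, 19.1, 19.3, 13.5, 17.9 and 20.5 FPKM in nonresponders 1 to 6. Its lowest responder and highest nonresponder lay close together, its difference was 0.69 on the log2 scale (SE 0.24), and it was not called. All responders were above all nonresponders for 36 of all genes tested (0.253%). Without responder 1, Ptprn2 averaged 24.9 ± 2.71 FPKM in responders and 17.9 ± 2.46 FPKM in nonresponders (SD, n = 5 and 6).

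Against the hormones, 15 of the 20 partners had a Gh slope above 0, as did 56.5% of all genes, and 0 were called, and 1 was called for Prl. This was Baiap3, a gene of dense-core vesicle recycling, with a slope of 0.36 per doubling of Prl (SE 0.04, adjusted p 0.0134, limma) and 0.33 per doubling of Gh (adjusted p 0.0539). It had 11.9 FPKM in responder 1 and 2.71 FPKM or less in all other mice. Without responder 1 its Prl slope was 0.27 with an adjusted p of 0.588, and the call was also lost without responder 4 (0.36, adjusted p 0.0584) or responder 6 (0.33, adjusted p 0.0549). By sex, 10 of 20 partners had a higher estimate in females, as did 48.3% of all genes, and 0 were called.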

How the data were processed

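Libraries were made with poly A selection from 12 trigeminal ganglion samples, 1 mouse each, and sequenced as 150 bp paired-end reads, per the labels and the series design. The authors deposited 1 value per Ensembl gene and mouse, read here as FPKM; the header names no unit, and the values were not whole and their totals differed between mice. The submitters' processing notes name the tools STAR 2.6.0a and StringTie 1.3.5 and the build GRCm38 (mm10). The sources used here do not give the annotation, strand use, filters or depth. No counting interval was made for that reason. Symbols and coordinates come from GENCODE M21 of GRCm38, which held 51024 of 51341 identifiers. The table held 0 columns of other samples and 0 identical pairs of columns. Nothing says whether mice shared a litter, and p values measure the spread between these mice.

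From the FPKM, log2(FPKM + 1) was tested with limma 3.58.1 in R 4.3.3 (eBayes, prior degrees of freedom 2.23) on genes at 1 FPKM or more in at least 3 mice. This scale understates changes of low genes. The response fit had sex as covariate, the sex fit the response group, the hormone fits both, and the interaction 4 group means. Adjusted p are 2-sided Benjamini-Hochberg values over all genes tested, threshold 0.05. Correlations used 100000 permutations, or all orders of 6 mice (exact), 2-sided. The design had allowed for counts, and its branch for FPKM was used. The fits were tested on simulated data.

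The 10 genes and all lists (vesicle and processing partners, pituitary hormones, pituitary cell genes, sensory neuron, chromaffin and sympathetic, Schwann and satellite glia, fibroblast and meningeal markers) were chosen with earlier results of these data known. Named beside them were, by a rule, Gh and Prl, the 4 partners of highest mean, each partner called, and for each gene the 3 most alike (predicted models left out); Ptprn was named after their values were seen. Transcript matches are blastn 2.17.0 hits of at least 90% identity over 200 bases. Alternatives were another pseudocount, no filter, rescaling, other eBayes options, a replicate block, other covariates, averaging by label number and leaving out mice; leaving out 2 mice together was chosen after seeing the data.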

Additional observations from a re-analysis of the deposited data

Results flagged for a closer look

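In groups of 6 mice, a value was marked when its gap to the nearest other mouse, over the range of its group, exceeded Dixon's 95% critical value. Chance marks about 1 in 20 groups of normally distributed values. The FPKM were used without a log, so that rate need not hold here. Of all tested genes, 20.8% were marked in responders and 13.2% in nonresponders, and responder 1 was marked as the highest responder for 1703 genes (11.99%). Of 24 gene and group combinations checked (the 10 genes, Gh and Prl), 11 were marked.

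Responder 1 stood above the other responders for Chgb at 1042 FPKM, Scg2 at 889 FPKM, Scg5 at 769 FPKM, Cpe at 474 FPKM, Chga at 371 FPKM, Scg3 at 174 FPKM and Pcsk1 at 32.3 FPKM. The same mouse stood above the others for Gh at 63429 FPKM and Prl at 9397 FPKM. Among nonresponders, nonresponder 4 was low for Cpe at 245 FPKM, and nonresponder 5 was high for Gh at 701 FPKM. For Resp18, the response difference ran in opposite directions in the sexes, all female responders below and all male responders above the nonresponders of their sex, with an interaction of -2.71 on the log2(FPKM + 1) scale. The gene was chosen with these values known, so the difference is a description.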

How the results depend on the processing

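The count of genes called between responders and nonresponders was 3; it was 1 with a replicate block, 1 with mice averaged by label number, and 2 to 6 with 1 mouse left out. Of the 10 genes, 0 were called under every alternative run. Between the sexes 8 genes were called, 5 with the replicate block and 6 to 9 with 1 mouse left out. For the interaction the count was 0, and 0 to 3 with 1 mouse left out, with 0 to 1 of the 10 (Resp18, without responder 1, responder 4 or nonresponder 1), which is no test of Resp18, since these values chose it. For the Gh slope the count was 4: it was 13 with a pseudocount of 0.1, 2 with no filter, 1 with the replicate block, 61 with no covariate, 0 without responders 1 and 2, and 2 to 65 with 1 mouse left out (65 without nonresponder 5). With no covariate 2 of the 10 were called for Gh, Chgb (adjusted p 0.0271, limma) and Scg2 (0.0302). For the Prl slope the count was 10: it was 5 with no filter, 0 with the replicate block, 0 with no covariate, 0 without responder 1 and nonresponder 2, and 1 to 374 with 1 mouse left out (374 without nonresponder 4, 229 without nonresponder 5, 1 without responder 1), with 0 to 2 of the 10 (Chgb and Scg2, adjusted p 0.0450 each, limma, without nonresponder 5). The cause of these shifts was not tested. Replicate numbers did not pair the mice: deviations of same-numbered mice correlated between -0.273 and 0.133, and 0 of 6 correlated best with their own number. The estimate of the 10 genes kept its sign in 214 of 220 cases for the response, 168 of 190 for sex, 177 of 190 for Gh and 180 of 190 for Prl. With 1 mouse left out the response difference of Vgf ranged from -0.07 to 0.21. Read depth is unknown, which limits Resp18 most, the lowest of the 10.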
